A study of Mus musculus with 2 samples.

Results

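The miR-199 and miR-214 genes are 4 precursor genes, Mir199a-1, Mir199a-2, Mir199b and Mir214, and they were followed here in the lungs of newborn mice. They were taken by symbol from the 1973 miRNA genes of a small RNA sequencing experiment, and all 4 had a row. Total RNA came from mice of the strain B6NCrl, a C57BL/6N substrain, on postnatal day 0, with no treatment or second tissue named. The samples form 1 group of 2 biological replicates: the labels give 2 lungs of pup 1 of pregnancy 1 for replicate 1 and 2 lungs of pup 3 of the same pregnancy for replicate 2. Both carry the same donor record, the sex was not collected, and sequenced RNAs were under 30 bases long. Differences between replicates therefore measure the spread between these libraries, which rest on the labels alone for coming from separate animals.

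The miR-199 and miR-214 miRNAs are known from mesenchyme, that is fibroblasts, smooth muscle and the cells that give rise to them. Mir199a-2 and Mir214 are cut from the same long non-coding RNA, Dnm3os, which the transcription factor Twist1 is known to drive. A mature miRNA finds its target messenger RNAs mainly through its seed, bases 2 to 8 from the 5′ end. Among the known targets of miR-214 is Ezh2, which methylates histone H3, and miR-199a-5p is known for acting on caveolin-1 in lung fibroblasts. Each precursor hairpin can yield a mature miRNA from its 5′ arm (5p) and from its 3′ arm (3p).

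The mature sequences are shown first because they decide which gene a read can be assigned to. They are from RefSeq on GRCm38.p6, which held a hairpin for each of the 4 genes, and run 5′ to 3′ with the seed in capitals.
miR-199a-5p: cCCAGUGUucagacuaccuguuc
miR-199a-3p: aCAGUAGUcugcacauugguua
miR-214-5p: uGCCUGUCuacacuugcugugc
miR-214-3p: aCAGCAGGcacagacaggcagu
miR-761: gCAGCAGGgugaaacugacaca

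The 23-base miR-199a-5p lies whole in the hairpins of both Mir199a-1 and Mir199a-2. The 22-base miR-199a-3p lies whole in Mir199a-1, Mir199a-2 and Mir199b, where it is listed as miR-199b-3p. By contrast, 0 other hairpins hold miR-214-5p or miR-214-3p. The seeds of miR-199a-3p and miR-214-3p differ at 2 positions, U5C and U8G, counted from 1 at the 5′ end with the base of miR-199a-3p first. The seed of miR-214-3p is shared with miR-761, whose gene Mir761 had 0 reads in both replicates, which allows up to 0.662 and 0.553 reads per 1000000 for reads with a single position.

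The hairpins show how the paralogs differ around the shared arms. Capitals mark bases identical to miR-199a-5p and miR-199a-3p, or in Mir214 to its own arms. The hairpins lie at chr9:21496495-21496564 on the minus strand for Mir199a-1, chr1:162217814-162217923 on the plus strand for Mir199a-2, chr2:32318460-32318569 on the plus strand for Mir199b and chr1:162223368-162223477 on the plus strand for Mir214.
Mir199a-1: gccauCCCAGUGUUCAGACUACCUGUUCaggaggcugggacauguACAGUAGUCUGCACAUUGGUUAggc
Mir199a-2: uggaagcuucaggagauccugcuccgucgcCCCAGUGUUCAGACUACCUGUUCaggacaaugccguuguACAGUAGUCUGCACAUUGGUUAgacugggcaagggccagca
Mir199b: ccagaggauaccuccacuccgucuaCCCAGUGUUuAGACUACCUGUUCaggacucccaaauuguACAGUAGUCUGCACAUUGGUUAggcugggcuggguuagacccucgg
Mir214: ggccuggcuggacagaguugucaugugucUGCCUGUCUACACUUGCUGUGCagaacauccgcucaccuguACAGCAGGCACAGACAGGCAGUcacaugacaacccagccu

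In Mir199b, the stretch that aligns with miR-199a-5p carries 1 substitution, C10U, counted from the 5′ end of miR-199a-5p with the base of miR-199a-5p first. It is the lower-case letter inside the first run of capitals, and it lies outside the seed. This stretch of Mir199b, where miR-199b-5p would lie, is in 0 other hairpins, so among the hairpins an exact read of it matches Mir199b alone. In this Mir199b differs from Mir199a-1 and Mir199a-2, whose arms are both shared. The genome outside the hairpins was not searched for it, and the mismatches allowed in mapping are not known. The longest stretch shared by Mir199a-1 and Mir199a-2 was 27 bases, that of Mir199a-1 and Mir199b 28 bases and that of Mir199a-2 and Mir199b 27 bases. Mir214 shared at most 7 bases with any of them.

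A read of exactly miR-199a-5p or miR-199a-3p therefore matches more than 1 hairpin. To match Mir199a-2 alone among the hairpins, a read of miR-199a-5p would need 1 more templated base at its 5′ end or 5 more at its 3′ end, and the same numbers held for Mir199a-1. A read of miR-199a-3p would need 2 more bases at its 3′ end for Mir199a-2 and 4 more for Mir199b. The deposited tables place reads mapped to several positions in a row of their own, which held 2860715 reads (34.6% of all) in replicate 1 and 3812820 reads (36.7%) in replicate 2. How many of these came from miR-199 is not in the tables, so the levels of the 3 Mir199 genes given here are those of uniquely placed reads and can be too low. The tables do not separate the arms, and each value is for a whole precursor.

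The libraries held 4532902 and 5426081 reads on the strand of miRNA genes in replicates 1 and 2, and levels are counts per 1000000 of these reads (CPM). The tissue is described by marker lists, which were chosen with earlier results of these data known and are no independent check. Summed levels were 161377 and 161345 CPM for 3 endothelial genes, nearly all of it Mir126a with a mean of 160649 CPM, and 32744 and 32592 CPM for 6 epithelial genes. They were 22081 and 22235 CPM for 5 genes of multiciliated cells. The liver gene Mir122 stood at 45.9 and 53.1 CPM, and 8 striated muscle genes summed to 416 and 456 CPM. Most of this sum was Mir208b, at 295 and 304 CPM, and Mir208a, at 103 and 124 CPM. Mir1a-1, Mir133a-1 and Mir133a-2 were at 0. Those 3 hold 22-base stretches found in another miRNA gene, so their reads can be among those mapped to several positions. Leukocyte genes (3) summed to 1502 and 1605 CPM and erythroid genes (3) to 1306 and 1149 CPM, with log2 ratios of replicate 2 to replicate 1 of -0.57 for Mir451a and 0.87 for Mir144. Mir142 and Mir142a of the leukocyte list and Mir1a-2 of the muscle list had no row under these symbols, so the sums lack them. In bulk tissue, fewer cells of a type and less RNA per cell cannot be told apart.

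Mir214 was by far the highest of the 4 genes in uniquely placed reads. It had 20625 reads in replicate 1 and 21395 in replicate 2, which are 4550 CPM (exact Clopper-Pearson 95% interval 4488 to 4612) and 3943 CPM (3890 to 3996). Its mean was 4247 ± 429 CPM (SD, n = 2), rank 35 of the 1973 genes. The interval covers counting error only, since PCR copies of a molecule are counted like separate molecules, and the replicates lay farther apart than it allows. Mir214 alone made up 93.7% and 93.5% of the reads of the 4 genes in replicates 1 and 2. On the opposite strand of its precursor, 2 and 1 reads were counted.

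In the order of levels, Mir214 stood between Mir98, a let-7 relative, and Mir34c, a miRNA of multiciliated cells. Mir98 was at 4000 and 4496 CPM and Mir34c at 4554 and 3882 CPM in replicates 1 and 2. The ranges of these genes overlap that of Mir214, so this order does not hold beyond the spread between the replicates. Next above were Mir379 and Mirlet7f-2, at 4472 ± 210 and 4623 ± 123 CPM (SD, n = 2), and next below Mir744 and Mir15a, at 4141 ± 636 and 4088 ± 304 CPM.

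Mir199b was the highest of the Mir199 genes in uniquely placed reads. It had 1201 and 1268 reads, which are 265 CPM (250 to 280) in replicate 1 and 234 CPM (221 to 247) in replicate 2, with a mean of 249 ± 22.1 CPM (SD, n = 2) and rank 133. Mir199a-2, which shares its host transcript with Mir214, had 164 and 189 reads, or 36.2 CPM (30.9 to 42.2) and 34.8 CPM (30.04 to 40.2). Its mean was 35.5 ± 0.953 CPM (SD, n = 2), rank 209. The counting intervals of Mir199a-2 overlap between the replicates, and both lie below those of Mir199b.

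Mir199a-1 was the lowest, with 21 and 24 reads. These are 4.63 CPM (2.87 to 7.08) and 4.42 CPM (2.83 to 6.58), with a mean of 4.53 ± 0.148 CPM (SD, n = 2) and rank 284. All 4 genes had at least 10 reads in each replicate, as did 308 of the 1973 genes. The order Mir214, Mir199b, Mir199a-2, Mir199a-1 was the same in both replicates, and no ranges of neighbours in it overlapped.

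**Figure D1:**
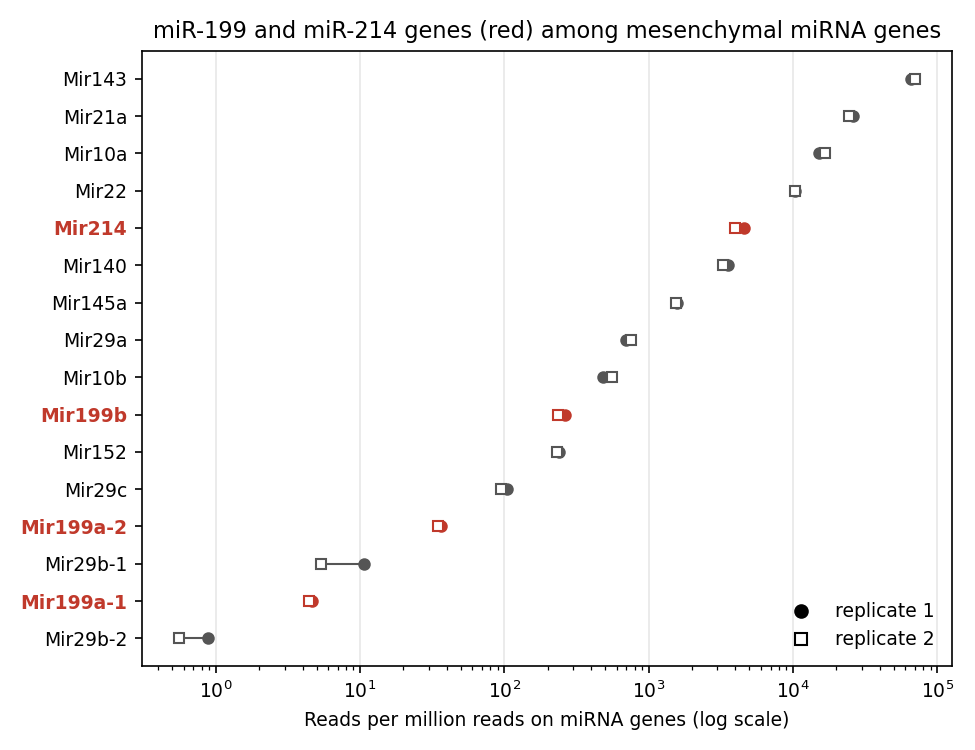
Level of each miR-199 and miR-214 gene (red) and of 12 other mesenchymal and fibroblast miRNA genes (grey) in CPM on a log axis. Filled circles are replicate 1 and open squares replicate 2. Mir214 sits at 4550 and 3943 CPM between Mir22 and Mir140, and the 3 Mir199 genes lie between 4.42 and 265 CPM.

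In uniquely placed reads, the differences between the genes were far larger than the spread between the replicates. That spread cannot show how many reads of the Mir199 genes were mapped to several positions. The ratios of Mir214 to these genes can therefore be too high. Mir214 exceeded Mir199b by 4.10 in replicate 1 and 4.08 in replicate 2 on the log2 scale of CPM, with a mean of 4.09 ± 0.018 (SD, n = 2) or a ratio of 17.0. It exceeded Mir199a-2 by 6.97 and 6.82, a ratio of 119. These 3 precursors are all 110 bases long, so the ratios per base of precursor are the same. The precursor of Mir199a-1 is 70 bases long. Mir214 exceeded it by 9.87 ± 0.099 (SD, n = 2) on the log2 scale of CPM and by 9.22 on the log2 scale of reads per base. Ratios per base are given here and below as an alternative only. Sequenced RNAs were under 30 bases, so a longer annotated precursor need not yield more reads.

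Within the Mir199 genes, the split of uniquely placed reads was close in both replicates. Mir199b took 86.7% (exact 95% interval 84.7% to 88.4%) of 1386 reads in replicate 1 and 85.6% (83.7% to 87.4%) of 1481 reads in replicate 2. Mir199a-2 took 11.8% (10.2% to 13.7%) and 12.8% (11.1% to 14.6%). Mir199a-1 took 1.52% (0.940% to 2.31%) and 1.62% (1.04% to 2.40%). For each gene the intervals of the replicates overlap. Mir199b exceeded Mir199a-2 by 2.81 ± 0.089 on the log2 scale of CPM, a ratio of 7.01, and Mir199a-2 exceeded Mir199a-1 by 2.97 ± 0.0085 (SD, n = 2), or by 2.32 per base of precursor. The 3 genes together reached 306 and 273 CPM. Among the hairpins, the 5p stretch of Mir199b lies in no other, while both arms of Mir199a-1 and Mir199a-2 are shared. Unique placement thus treats these genes unequally, and the split cannot compare the amounts of mature miRNA made from them.

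The counted levels were set beside the amount of sequence each gene shares. Every stretch of 22 bases of a precursor in the GENCODE M21 annotation was searched on both strands in all other miRNA genes at another position. All 89 such windows of Mir214 were found in no other miRNA gene at another position. The unique share was 91.0% in Mir199b, 86.5% in Mir199a-2 and 73.5% in Mir199a-1, the same order as the counted levels. Shared windows were 8 of 89 in Mir199b, 12 of 89 in Mir199a-2 and 13 of 49 in Mir199a-1. The share thus also depends on the length of the annotated precursor. With 4 genes this is a description, and the part of shared sequence in the levels was not tested.

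The same values were then taken over all genes. Of the 308 genes with at least 10 reads in each replicate, 54 had a shared window, and 4 of these (7.41%) reached a mean of 1000 CPM. Of the 254 with no shared window, 76 (29.9%) did. The median level was 48.2 CPM with a shared window and 218 CPM without. These genes were picked on the same uniquely placed reads, and an effect of sharing was not tested. By mature sequences, 34 genes had every one in another hairpin, and 20.6% of them had at least 10 reads in each replicate. This share was 61.2% of 49 genes with some in another hairpin and 29.5% of 775 with none.

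**Figure D2:**
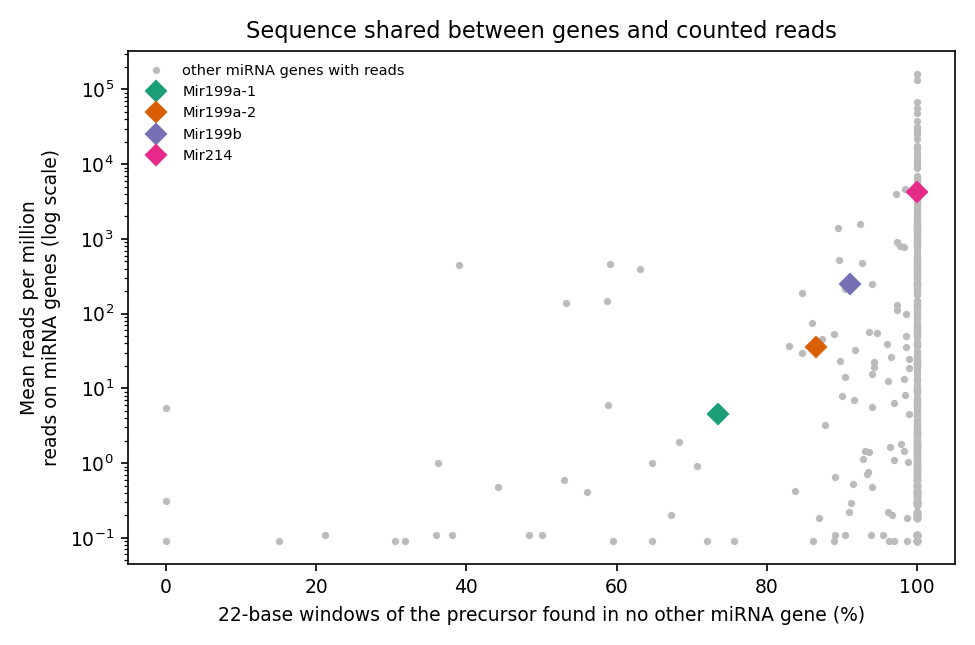
Mean level on a log axis against the percent of 22-base windows of the precursor found in no other miRNA gene at another position, for the 666 annotated genes with reads. Mir214 lies at 100% and 4247 CPM, and Mir199b, Mir199a-2 and Mir199a-1 lie at 91.0%, 86.5% and 73.5% with falling levels.

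All 4 genes lie inside the genes of the dynamins, GTPases that pinch membrane vesicles off, and on the strand opposite to them. Positions are from GENCODE M21 on GRCm38, the assembly mm10 of the deposited tables. Mir199a-1 (ENSMUSG00000065547.1) is intronic in all 10 Dnm2 transcripts that span it on chromosome 9. Mir199b (ENSMUSG00000092807.1) is intronic in all 10 Dnm1 transcripts that span it on chromosome 2. Mir199a-2 (ENSMUSG00000070126.1) and Mir214 (ENSMUSG00000065516.1) are intronic in all 4 Dnm3 transcripts that span them on chromosome 1.

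On their own strand, Mir199a-2 and Mir214 overlap exons of Dnm3os. Mir199a-2 begins 191 bases after the annotated start of Dnm3os and Mir214 begins 5745 bases after it, with 5444 bases between the hairpins. Dnm3os has 6 annotated transcripts. Mir199a-2 overlaps an exon in each of the 3 that span it, and Mir214 in each of the 2 that span it. The uniquely placed reads on these neighbours differed 119-fold, and both hairpins lie whole in the same 2 unspliced transcripts. Among the hairpins, a read of exactly a mature sequence can be placed on Mir214 alone, but not on Mir199a-2, whose arms are both shared. These reads therefore cannot compare the amounts of mature miRNA made from the 2 hairpins.

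**Figure D3:**
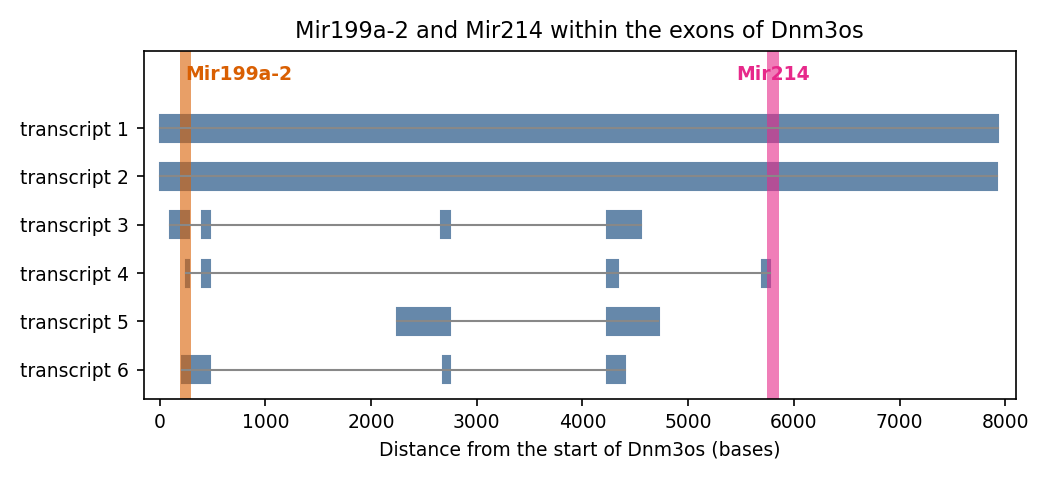
Positions of Mir199a-2 (orange) and Mir214 (pink) along the 6 annotated transcripts of Dnm3os, in bases from the gene's start. Boxes are exons and lines introns. The hairpins begin at 191 and 5745 bases, and both lie whole within transcripts 1 and 2.

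Other miRNAs known from mesenchyme and fibroblasts placed Mir214 in the upper part of their range. Among the 12 genes of that list, 4 stood above Mir214 per read in both replicates, namely Mir143, Mir21a, Mir10a and Mir22. Mir143, a miRNA of smooth muscle, was at 65604 and 70070 CPM, and exceeded Mir214 by 3.85 in replicate 1 and 4.15 in replicate 2 on the log2 scale of CPM, a mean ratio of 16.0. Per base of precursor (63 bases in Mir143) the ratio was 27.9. Mir21a, known to rise in injury and fibrosis, was at 26115 and 24633 CPM, above Mir214 by 5.99-fold per read and 7.16-fold per base.

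Mir145a, which is transcribed together with Mir143, was below Mir214 at 1570 and 1538 CPM. Mir214 exceeded it by 1.45 ± 0.13 on the log2 scale of CPM (SD, n = 2), a ratio of 2.73, and by 1.73-fold per base of precursor. The order of Mir143, Mir214 and Mir145a was the same in both replicates, and their ranges did not overlap. Mir140, a miRNA of cartilage, was at 3526 and 3273 CPM. The genes of the miR-29 family, which acts on collagen messenger RNAs, ranged from 0.718 ± 0.23 CPM for Mir29b-2 to 725 ± 34.3 CPM for Mir29a. Mir29b-1 and Mir29b-2 hold 5 and 4 windows of 22 bases found in another miRNA gene, so their counted levels can be too low too. Mir199b was close to Mir152, at 239 and 230 CPM, and their ranges overlap.

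The replicates were then compared gene by gene by a two-sided exact binomial test on how each gene's reads were split, with Benjamini-Hochberg adjustment over the 375 genes with at least 10 reads in both replicates together. It compares these 2 libraries, not conditions. Mir214 was lower in replicate 2 by a log2 ratio of -0.21, with a counting standard error of 0.014 (adjusted p = 1.34e-47 by this exact test). With TMM scaling the log2 ratio was -0.14, and with the size factors of DESeq2 it was -0.15. The size of this difference was common: among the 233 genes averaging 100 or more reads, 91 (39.1%) had a larger log2 ratio in size, and the SD over them was 0.26.

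Mir199b also had the lower level in replicate 2, with a log2 ratio of -0.18, a counting standard error of 0.058 (adjusted p = 0.00575, exact test). This call was lost with other scalings, with an adjusted exact p of 0.111 under TMM and 0.0643 under the size factors of DESeq2. Mir199a-2 and Mir199a-1 did not pass, with log2 ratios of -0.05 and -0.07 and adjusted p = 0.874 and 0.951 by the exact test. Under TMM both ratios had the other sign, at 0.015 and 0.0026. In all, 2 of the 4 genes passed, both lower in replicate 2, while 42.4% of all tested genes passed in either direction, 23.2% passed as lower and 19.2% as higher in replicate 2. The median log2 ratio was -0.12 over the 4 genes and -0.03 over all 375.

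**Figure D4:**
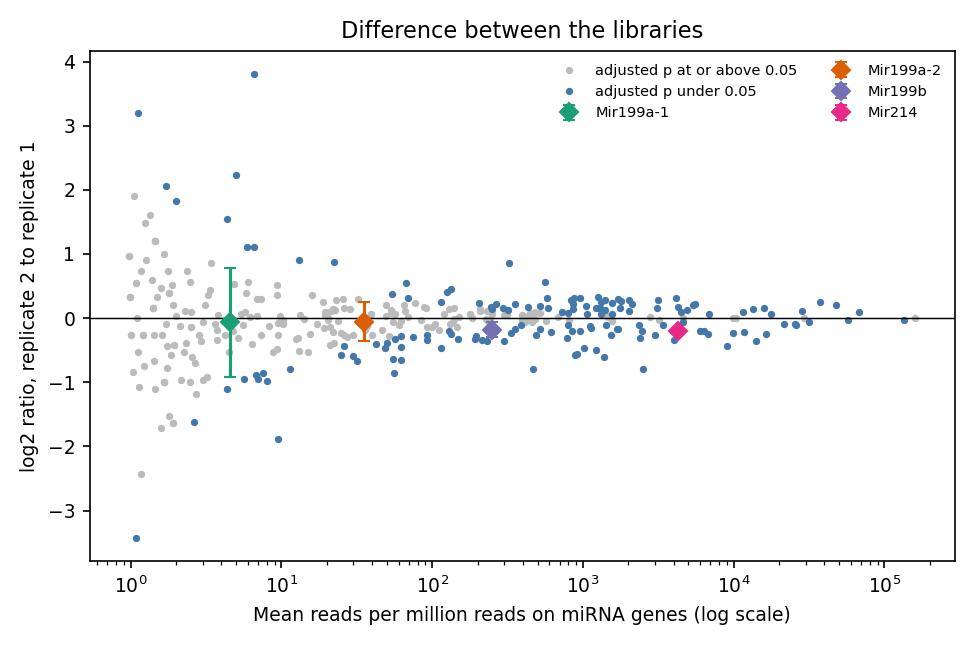
Log2 ratio of replicate 2 to replicate 1 against the mean level on a log axis, for the tested genes other than 1 with 0 reads in a replicate. Blue points passed the exact test and grey points did not. Diamonds are the miR-199 and miR-214 genes with 95% counting intervals, which are wide for Mir199a-1 and smaller than the symbol for Mir214 at -0.21.

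The other mesenchymal genes did not share 1 direction. Of the 11 that were tested, 4 were higher in replicate 2 (Mir143, Mir10a, Mir10b and Mir29a) and 3 lower (Mir21a, Mir140 and Mir29b-1), and these calls kept their signs under TMM and the size factors of DESeq2, where Mir22 passed as higher too. Their median log2 ratio was -0.03, or 0.040 under TMM and 0.025 under the size factors of DESeq2. Mir143 had a log2 ratio of 0.095 (0.16 under TMM and 0.15 under the size factors of DESeq2), against the -0.21 of Mir214. Mir145a did not pass, and its ratio of -0.03 turned to 0.040 and 0.025 under these scalings. The 3 genes whose ratio was nearest that of Mir214, among 145 others averaging 1000 or more reads, were Mir200b at -0.21, Mir182 at -0.20 and Mir135b at -0.21. Mir200b is an epithelial miRNA, but of the 6 epithelial genes, all tested, 2 were called higher and 3 lower in replicate 2. The 3 nearest genes were picked by this ratio, so their likeness to Mir214 follows from the pick. It also rests on 2 libraries.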

How the data were processed

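Small RNA reads from 2 newborn mouse lung libraries were used. The authors deposited whole-number read counts per miRNA gene and library, not normalized, with mm10 as assembly and GENCODE M4 as annotation, per the description deposited beside the tables. Not given in the sources used here are the aligner, the counting program and any filters. Each table has columns for reads on either strand, the gene's own strand (98.2% and 98.0% of them in replicates 1 and 2, used here) and the opposite strand, the single-strand columns adding up to the first throughout. No file states the library's strand: the single-strand column with more reads was taken as the own strand. The 4 rows without a gene were left out of library totals. Of all reads, 8.49% and 8.69% were unmapped and 2.18% and 2.41% lay on no feature.

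Symbols came from GENCODE M21 (GRCm38), which matched 1894 of 1973 identifiers. CPM, ratios, exact Clopper-Pearson intervals and the binomial test (adjusted p under 0.05) were computed with Python 3.11.15 and scipy 1.17.1, and scaling factors with edgeR 4.0.16 and DESeq2 1.42.0. No quasi-likelihood test of edgeR was run, as each side of the comparison is 1 library. The binomial test was tested on simulated data that held counting error and set changes only, without other variation between libraries. A count of 0 allows 3 reads.

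The genes, lists and tests were chosen with earlier results of these data known. Named were the 4 genes, the marker lists, 3 neighbours of Mir214 in level on each side, the 3 nearest in log2 ratio, and genes sharing a mature sequence or seed. Alternatives were strand, denominator, precursor length, pseudocount, scaling, filter and each replicate left out.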

Additional observations from a re-analysis of the deposited data

How the results depend on the processing

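Of 60 alternative values, 22 could not show a change: with 2 libraries, the 20 that leave one out lie within 1 SD of the mean, and 2 compare precursors of equal length. Of the other 38, 12 of 21 untested levels or ratios stayed within 1 SD, 8 of 12 tested ratios between replicates kept their direction and side of the threshold, and all 5 counts of calls stayed within 1.5 times the main count. The 21 untested values are a weak check, and so are the tested ratios counted on either strand. Few reads lay on the opposite strand, 2 and 1 for Mir214, so counting either strand could change little. The other untested values follow from the denominator, the length or the pseudocount. Among the tested ratios, only that of Mir214 kept its direction and passed under both TMM and the size factors of DESeq2. Per 1000000 of all reads in the tables, including those on no gene, the levels were 2.42 for Mir199a-1, 19.0 for Mir199a-2, 134 for Mir199b and 2275 for Mir214, lower because the denominator is larger. Per base of precursor, the log2 ratio of Mir214 to Mir199a-1 was 9.22, to Mir143 -4.80, to Mir145a 0.79 and to Mir21a -2.84, which follows from the lengths. With log2(CPM + 1), the ratio of Mir214 to Mir199a-1 was 9.58, since the pseudocount weighs on low levels. The log2 ratio of replicate 2 to replicate 1 changed sign under TMM for Mir199a-1 (0.0026) and Mir199a-2 (0.015), and for Mir199b it no longer passed under TMM (-0.11) or the size factors of DESeq2 (-0.13). The number of genes past the exact test was 159, between 145 and 165 under the alternatives. Of those calls, 45.3% were higher in replicate 2, against 62.3% under TMM and 58.5% under the size factors of DESeq2. No paired analysis was possible because there is 1 group. With 21 and 24 reads of Mir199a-1, counting error alone gives its log2 ratio between replicates a standard error of 0.43.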
